A study of Mus musculus with 6 samples.

Results

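The 7 genes described here were Ccr1, Ccr2, Ccrl2, Cx3cr1, Cxcr4, Cxcl16 and Cmklr1, taken as the rows of the count matrix that carry these symbols under the working name chemokine receptors of monocytes and macrophages. They were 7 of 15168 genes in the table, and all 7 were among the 11878 genes that passed the filter on low counts. The name does not cover every gene, because Cxcl16 encodes a membrane-bound chemokine, the ligand of Cxcr6, and Ccrl2 encodes an atypical receptor that binds chemerin and does not signal as the others do. Macrophages were sorted by flow cytometry as CD45+CD11b+CD64+F4/80+ cells from 10 mm full-thickness wounds on the back of female C57BL/6J wild-type mice, 3 days after wounding. The young group was labelled 12 weeks old and the aged group 24 months old, with 3 libraries in each, lettered set A, B and C. The comparison of aged with young libraries addressed how age alters macrophages in the inflammatory phase of repair. Library totals were 16263373, 15642483 and 15282178 expected counts in young A, B and C, and 15270103, 15998054 and 17927483 in aged A, B and C. The labels did not say that each library came from a separate animal, so p-values measure only the spread between these libraries, which may be technical.

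Chemokines are small secreted or membrane-bound proteins that guide leukocytes through receptors with a bundle of membrane-spanning helices coupled to inhibitory G proteins. Ccr2 carries inflammatory monocytes out of the bone marrow toward Ccl2 and related ligands, Ccr1 answers Ccl3, Ccl6 and Ccl9, and Cx3cr1, the fractalkine receptor, marks patrolling monocytes and many tissue macrophages. Cxcr4 holds cells in marrow and tissue through Cxcl12, and Cmklr1 binds chemerin, which Ccrl2 presents on the cell surface. In skin wounds monocytes enter within days of injury and become macrophages that clear debris and later support closure.

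In aged wound macrophages Ccr1 rose 2.40-fold, whereas Cx3cr1, Cxcr4 and Cxcl16 fell. The fall was largest for Cx3cr1, at 3.64-fold, and was 1.75-fold for Cxcr4 and 1.78-fold for Cxcl16. Ccr2, Ccrl2 and Cmklr1 did not pass the test. Of the 7 genes, 4 were called at an adjusted p under 0.05, against 17.7% of all tested genes (2103 of 11878). In the direction of higher values in aged libraries 1 of 7 was called, against 9.73% of tested genes, and in the opposite direction 3 of 7, against 7.97%. With a change of more than 2-fold required as well, 2 of 7 were called, against 8.79%. The groups did not overlap for 3 of 7 genes, against 38.2% of tested genes. The 7 genes were chosen with earlier results of these data known, so these shares do not test whether they changed more often than other genes. None of the 7 was called when young B, young C or aged C was left out. The median log2 fold change was -0.16 over the 7 genes and -0.02 over all tested genes. Of the calls over all genes, 1156 rose and 947 fell, and with upper-quartile scaling 925 rose and 1195 fell. Fewer cells of a type and less RNA per cell cannot be told apart in these bulk libraries.

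Promoter windows were looked up for the 4 called genes, because these are the members that moved, and 3 had an entry (Cxcl16 did not). The windows are RefSeq sequences of build GRCm38.p6, from 250 bases before to 50 bases after the annotated start, written 5′ to 3′ on the strand of the gene. Capitals mark every match, on either strand, to the motif words of PU.1 (GAGGAA), AP-1 (TGANTCA), NF-kB (GGNNTTTCC), the hypoxia response element (ACGTG or GCGTG) and the TATA box (TATAAA). The Ccr1 window lies at chr9:123968643-123968942, the Cx3cr1 window at chr9:120068247-120068546 and the Cxcr4 window at chr1:128592250-128592549, all on the minus strand.
Ccr1: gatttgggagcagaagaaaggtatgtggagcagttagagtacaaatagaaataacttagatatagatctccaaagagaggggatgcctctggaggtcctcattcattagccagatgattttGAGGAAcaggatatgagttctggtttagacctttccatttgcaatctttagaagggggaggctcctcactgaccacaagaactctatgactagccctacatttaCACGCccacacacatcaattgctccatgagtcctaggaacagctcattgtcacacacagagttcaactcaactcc
Cx3cr1: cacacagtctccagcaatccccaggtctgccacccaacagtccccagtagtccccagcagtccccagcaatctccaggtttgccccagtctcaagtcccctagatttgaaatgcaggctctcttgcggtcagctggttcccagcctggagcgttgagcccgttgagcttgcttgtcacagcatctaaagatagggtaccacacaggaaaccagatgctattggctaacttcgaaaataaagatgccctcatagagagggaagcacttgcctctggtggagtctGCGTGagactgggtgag
Cxcr4: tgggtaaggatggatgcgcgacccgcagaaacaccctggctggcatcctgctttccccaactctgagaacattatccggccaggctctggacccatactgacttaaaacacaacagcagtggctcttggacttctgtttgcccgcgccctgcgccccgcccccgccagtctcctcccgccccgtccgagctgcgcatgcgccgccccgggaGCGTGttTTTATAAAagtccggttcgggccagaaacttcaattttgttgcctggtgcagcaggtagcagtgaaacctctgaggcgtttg

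The Ccr1 window held 1 PU.1 word and 1 hypoxia response word, the latter on the opposite strand. The Cx3cr1 window held 1 hypoxia response word and no other match. The Cxcr4 window held 1 hypoxia response word and, just after it, 2 overlapping TATA words on the opposite strands. Among 32851 promoter windows of this length, 28.3% held the PU.1 word, 43.8% a hypoxia response word and 13.6% the TATA word. The AP-1 word was present in 7.81% and the NF-kB word in 5.82% of all windows and had no match in these 3. A match describes letters in the window and is not a shown binding site. GC content was 44% for Ccr1, 54.3% for Cx3cr1 and 59.3% for Cxcr4.

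Ccr1, a receptor for inflammatory CC chemokines, had counts-per-million values (CPM, scaled by the trimmed mean of M-values) of 1061, 445 and 373 in young A, B and C. In aged A, B and C it stood at 2073, 1049 and 1393 CPM. Young A was as high as aged B, so the groups overlapped by that pair, and set A was the highest library within each age. The mean was 626 ± 379 CPM in young and 1505 ± 521 CPM in aged libraries (SD, n = 3 each). In edgeR's quasi-likelihood test the log2 fold change was 1.26 ± 0.39 (SE), with a Benjamini-Hochberg adjusted p of 0.0470. This call was close to the threshold. Limma-voom made the call (adjusted p = 0.00399), as did edgeR without young A (0.00378) or aged B (0.0359). The call was not made by DESeq2 (adjusted p = 0.0965), with upper-quartile scaling (0.0580) or without the filter on low counts (0.0519). Leaving out young B (0.161), young C (0.171), aged A (0.124) or aged C (0.103) also ended it, with log2 fold changes from 0.97 to 1.88 over all left-out libraries, the last without young A.

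Cx3cr1, the fractalkine receptor, was rare in every library. Its CPM was 7.47, 12.0 and 6.08 in young A, B and C, from 135, 204 and 92 expected counts. In aged A, B and C it was 3.71, 1.40 and 1.91 CPM, from 53, 22 and 31 expected counts. All aged libraries lay below all young ones. The log2 fold change was -1.87 ± 0.40 (SE), with an edgeR adjusted p of 0.0155. The call was lost without young B (0.0615), young C (0.0523) or aged C (0.0633), and it held in the other alternatives of test, scaling and filter. The locus spans other genes on both strands, but no counted gene shared exonic bases with it.

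Cxcr4, the receptor of Cxcl12, measured 50.2, 78.7 and 75.04 CPM in young A, B and C. The aged libraries measured 40.3, 30.9 and 45.6 CPM. The groups were separated, with young A the nearest of the young libraries to the aged ones. The log2 fold change was -0.80 ± 0.22 (SE), with an edgeR adjusted p of 0.0316. Leaving out any library other than young A raised the adjusted p above 0.05, to 0.109 without young B, 0.127 without young C, 0.0611 without aged A, 0.0891 without aged B and 0.0633 without aged C.

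Cxcl16, the chemokine that is shed from the cell surface to attract cells bearing Cxcr6, measured 363, 480.4 and 419 CPM in young A, B and C. In aged A, B and C it measured 267, 224 and 219 CPM. The groups were separated and the spread within each age was small, with the highest library 1.32 times the lowest in young and 1.22 times in aged. The log2 fold change was -0.83 ± 0.18 (SE), with an edgeR adjusted p of 0.0152. Without young B the adjusted p was 0.0549, without young C 0.0746 and without aged C 0.0719. Cxcl16 shares 552 exonic bases with Zmynd15 on the opposite strand, and the library kit does not keep strand, so reads from the shared bases cannot be told apart. Zmynd15 measured 10.8 ± 0.463 CPM in young and 5.39 ± 0.546 CPM in aged libraries (SD, n = 3 each) and fell by 1.005 on the log2 scale (edgeR adjusted p = 0.0154). That call was lost without young C (0.0788) or aged C (0.0642).

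Ccr2, the receptor that draws inflammatory monocytes into tissue, measured 269, 511 and 288 CPM in young A, B and C. In aged A, B and C it measured 383, 225 and 345 CPM. Young B was the highest library and aged B the lowest, and between them young A and C lay below aged A and C. The log2 fold change was -0.16 ± 0.28 (SE, edgeR adjusted p = 0.706), and its sign turned without young B (0.20) or aged B (0.04). The expected counts of Ccr2, Ccrl2, Cxcl16 and, by small fractions, Cxcr4 were not whole, so part of their reads was divided by estimation.

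Ccrl2, the chemerin-presenting atypical receptor, measured 180.2, 349 and 220.0 CPM in young A, B and C, and 356, 139 and 242 CPM in aged A, B and C. The highest and the lowest library were both aged. The log2 fold change was -0.02 ± 0.33 (SE, edgeR adjusted p = 0.971), with values of 0.31 without young B and 0.27 without aged B. Cmklr1, the signalling chemerin receptor, measured 2.10, 3.58 and 2.71 CPM in young and 4.90, 4.39 and 3.27 CPM in aged A, B and C, from 38 to 70.0 expected counts a library. Only aged C fell within the young range. Its log2 fold change was 0.58 ± 0.32 (SE, edgeR adjusted p = 0.227).

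**Figure D1:**
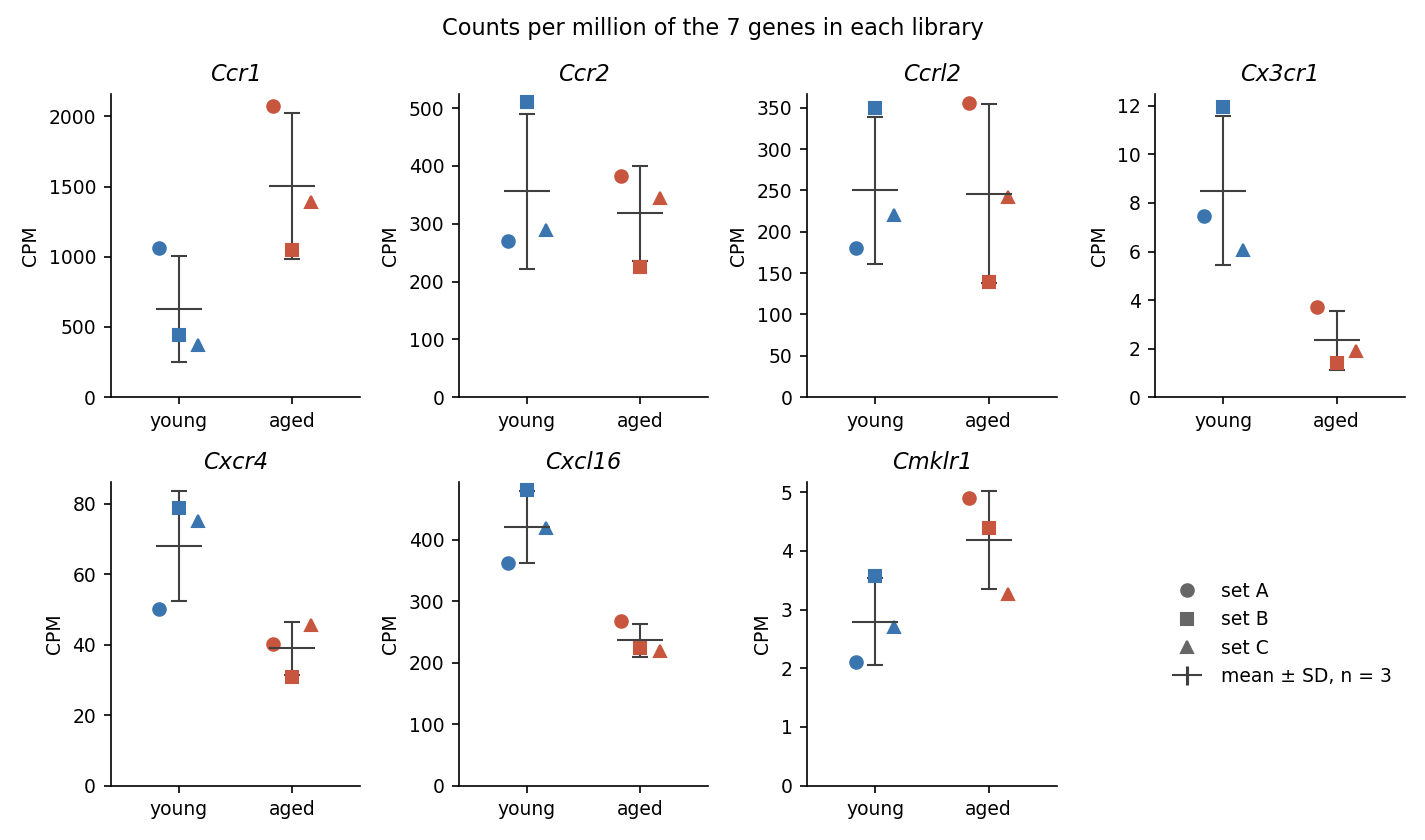
Counts-per-million values (CPM, vertical axes from 0) of the 7 genes in the 3 young (blue) and 3 aged (red) libraries, with marker shape giving the set letter and bars the mean ± SD. Aged libraries lie below all young ones for Cx3cr1, Cxcr4 and Cxcl16, and for Ccr1 the highest young library, at 1061 CPM, lies above the lowest aged one, at 1049 CPM.

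An exact permutation test on 3 against 3 libraries cannot give a two-sided p below 0.1. That value was reached on log2 CPM by Cx3cr1, Cxcr4 and Cxcl16, while Ccr1 and Cmklr1 had an exact p of 0.2, Ccr2 of 0.7 and Ccrl2 of 1.

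Levels of different genes were compared as CPM per kb of the longest transcript. In young libraries Ccr1 averaged 221 ± 134 and Cxcl16 156 ± 21.8 CPM per kb (SD, n = 3 each), a difference within the spread of Ccr1. Ccrl2 followed at 101.6 ± 36.0 CPM per kb, Ccr2 at 62.2 ± 23.4 and Cxcr4 at 37.7 ± 8.59. Ccrl2 and Ccr2 overlapped in their libraries, as did Ccrl2 and Cxcl16. Cx3cr1, at 1.89 ± 0.685, and Cmklr1, at 0.970 ± 0.258 CPM per kb, were far below the other 5. In aged libraries Ccr1 stood apart at 531 ± 184 CPM per kb. Ccrl2 (100.01 ± 44.1) and Cxcl16 (87.6 ± 9.83) came next and overlapped, followed by Ccr2 (55.5 ± 14.4) and Cxcr4 (21.6 ± 4.14). The aged libraries of Ccrl2 and Ccr2 overlapped as well. Cmklr1 averaged 1.45 ± 0.289 and Cx3cr1 0.521 ± 0.270 CPM per kb in aged libraries, so the 2 rarest genes stood in the opposite order to young libraries. With the mean transcript length in place of the longest, Cxcl16 averaged 224 and Ccr1 221 CPM per kb in young libraries, and Cmklr1 2.39 and Cx3cr1 2.24, so the order within both pairs depended on the length used.

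**Figure D2:**
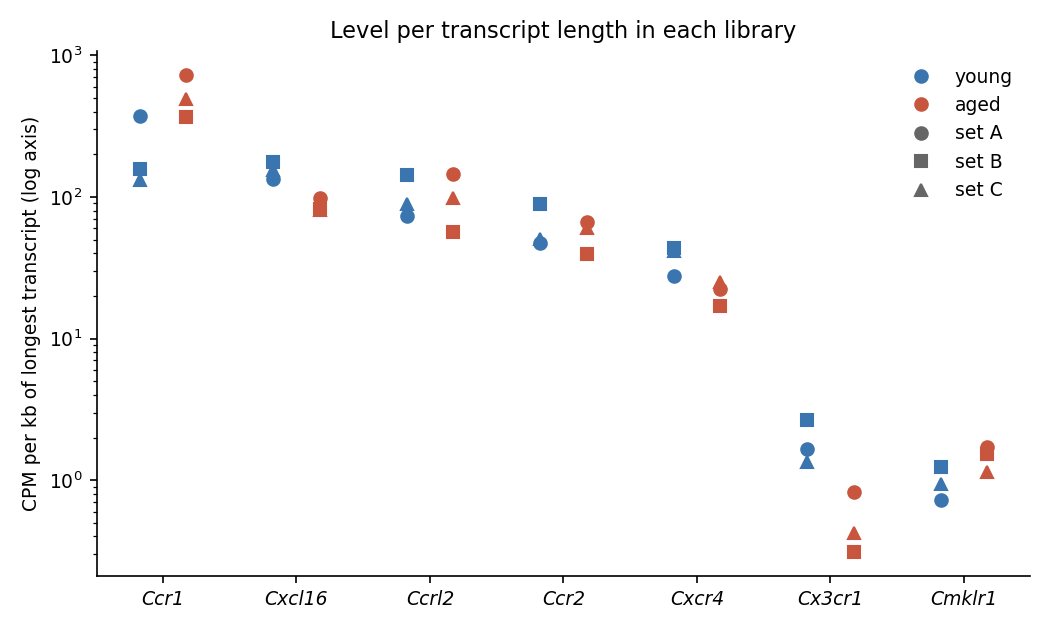
CPM per kb of the longest transcript (log axis) for the 7 genes, ordered by their mean in young libraries, in young (blue) and aged (red) libraries with marker shape giving the set letter. Ccr1 is highest in the aged libraries, with a mean of 531, and Cx3cr1 and Cmklr1 are the lowest genes in every library.

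As a share of the summed CPM per kb of the 6 receptor genes, Ccr1 took 71.3%, 36.0% and 41.7% in young A, B and C. It took 75.6%, 76.3% and 72.6% in aged A, B and C. All aged libraries were close together, and young A lay near them and apart from young B and C. The share of Ccr2 was 8.95%, 20.5% and 16.0% in young and 6.91%, 8.10% and 8.89% in aged A, B and C. Cxcr4 took 9.499% ± 3.97 in young and 3.19% ± 0.772 in aged libraries (SD, n = 3 each), and Ccrl2 25.0% ± 9.78 and 13.7% ± 1.79. These shares sum to a fixed whole, so a larger share of Ccr1 lowers those of the other 5 genes.

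**Figure D3:**
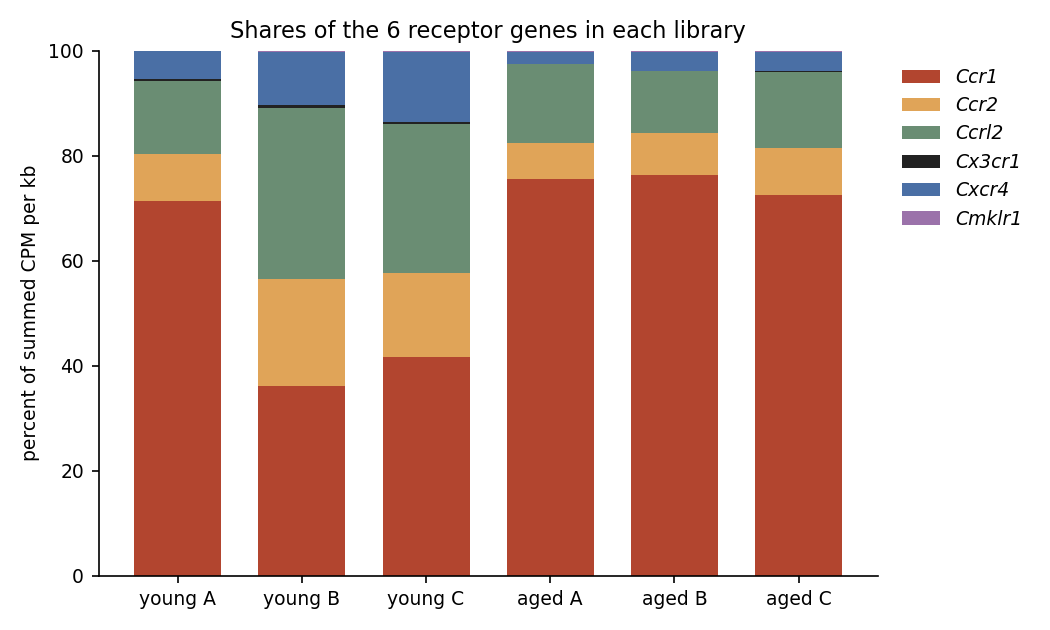
Percent of the summed CPM per kb that each of the 6 receptor genes contributed in each library, as stacked bars. Ccr1 makes up 71.3% in young A and at least 72.6% in each aged library, against 36.0% in young B and 41.7% in young C, while Cx3cr1 and Cmklr1 are barely visible.

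Of 12 listed ligands 11 were tested, of which 3 rose, none fell and 8 were not called, with a median log2 fold change of 0.61. For this and every list below, the shares over all tested genes were 9.73% risen and 7.97% fallen. Ccl3, a ligand of Ccr1, measured 273, 357 and 273 CPM in young A, B and C and 1241, 1164 and 1591 CPM in aged A, B and C. Every aged library exceeded every young one, and the log2 fold change was 2.15 ± 0.20 (SE, edgeR adjusted p = 0.00127), a call that held in all alternatives run. Ccl2, the main ligand of Ccr2, was at 1213, 604 and 787 CPM in young and 1830.0, 2460 and 2044 CPM in aged A, B and C. The groups were separated, and Ccl2 rose by 1.28 ± 0.26 (log2, SE, edgeR adjusted p = 0.0130), a call lost without young C (0.0762). Ccl6, a Ccr1 ligand and the most abundant of the list, rose by 0.87 ± 0.21 (log2, SE, edgeR adjusted p = 0.0238), and lost its call without young B (0.0861), young C (0.0582) or aged C (0.0791). Ccl9, also a Ccr1 ligand, was higher in all aged libraries but missed the threshold at a log2 fold change of 0.60 ± 0.19 (SE, edgeR adjusted p = 0.0555), and DESeq2 (0.00742) and limma-voom (0.0383) called it. Ccl5, another ligand of Ccr1, went the other way at -0.75 ± 0.41 (log2, SE, edgeR adjusted p = 0.224) and was not called. It was at 2.88 CPM or less in every library. The Ccr2 ligands Ccl7 (0.61, adjusted p = 0.228), Ccl8 (0.98, adjusted p = 0.114) and Ccl12 (-0.69, adjusted p = 0.09997) were not called by edgeR. Without young A the adjusted p was 0.0191 for Ccl7 and 0.0227 for Ccl12, and without aged A 0.0174 for Ccl8, while limma-voom called Ccl7 (0.0293) and DESeq2 Ccl8 (0.0400045). The log2 fold change of Ccl8 was 0.32 without aged B. Cxcl12, the ligand of Cxcr4, had a log2 fold change of 0.01 ± 0.48 (SE, edgeR adjusted p = 0.989). Rarres2, which encodes chemerin, had one of 0.79 ± 0.62 (SE, edgeR adjusted p = 0.396). Cx3cl1, which encodes fractalkine, had at most 5 expected counts in any library and was not tested.

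Of 21 symbols listed for other chemokine receptors, 13 were in the table and 11 were tested. Of these 2 rose, none fell and 9 were not called, with a median log2 fold change of 1.13. Cxcr2, best known from neutrophils, measured 12.9, 20.5 and 11.0 CPM in young A, B and C and 42.8, 19.4 and 35.3 CPM in aged A, B and C. Aged B lay within the young range, and Cxcr2 rose by 1.13 ± 0.31 (log2, SE, edgeR adjusted p = 0.0340). This call was lost without young A (0.0632), young C (0.143), aged A (0.0911) or aged C (0.104). Cxcr5, best known from B cells, rose by 1.599 ± 0.42 (log2, SE, edgeR adjusted p = 0.0283), from at most 1.38 CPM in young to at least 2.61 CPM in aged libraries. It lost its call without young B (0.0874), young C (0.117), aged A (0.0579) or aged C (0.0977). Ccr7, the receptor that takes dendritic cells to lymph nodes, measured 17.9, 4.17 and 4.29 CPM in young and 44.7, 14.8 and 17.7 CPM in aged A, B and C (edgeR adjusted p = 0.0860). As with Ccr1, the libraries of set A were the highest within each age. Xcr1, a marker of cross-presenting dendritic cells, measured 19.2, 0.528 and 1.85 CPM in young and 34.5, 4.65 and 11.9 CPM in aged A, B and C, again with set A highest (edgeR adjusted p = 0.408). Without young A both Ccr7 (0.00582) and Xcr1 (0.0122) were called, and limma-voom called Ccr7 (0.0128). Cxcr6, the receptor of Cxcl16, was at 3.82 CPM or less in every library (edgeR adjusted p = 0.369).

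**Figure D4:**
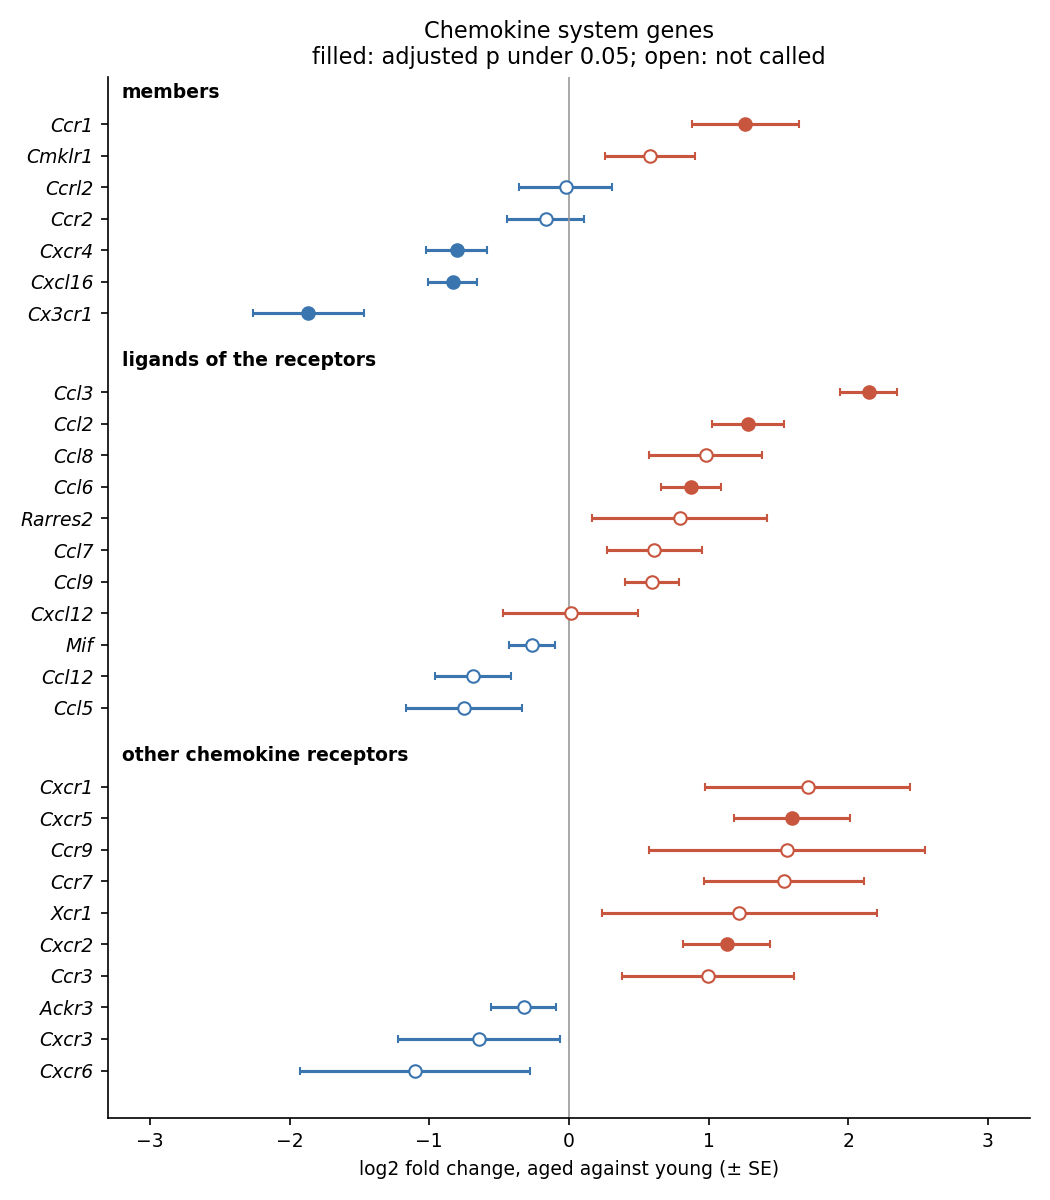
Log2 fold change of aged against young libraries (horizontal axis, ± SE) for the 7 genes (members), the tested ligands and 10 other tested chemokine receptors, with filled points for an edgeR adjusted p under 0.05. Of the 7 genes, Ccr1 lies to the right at 1.26, and Cxcr4, Cxcl16 and Cx3cr1 to the left, down to -1.87.

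Adam10 and Adam17 encode the proteases that release Cxcl16 and fractalkine from the cell surface. Adam10 rose by 0.90 ± 0.19 (log2, SE, edgeR adjusted p = 0.0156), and lost its call without young C (0.0801) or aged C (0.0511). Adam17 had a log2 fold change of 0.56 ± 0.18 (SE, edgeR adjusted p = 0.0503) and was not called, though DESeq2 (0.0233), limma-voom (0.0309), DESeq2's size factors (0.0468) and a filter of at least 10 counts in every library (0.0477) called it. All aged libraries were above all young ones for both. Of 9 tested G protein genes 1 rose, none fell and 8 were not called, with a median log2 fold change of 0.09. It was Gnai3, an inhibitory alpha subunit (0.89 ± 0.18, log2 and SE, edgeR adjusted p = 0.0122), which lost its call without young C (0.0701) or aged C (0.0540).

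Of 15 tested genes for receptor desensitisation 1 rose, 4 fell and 10 were not called. Their median log2 fold change was -0.49. The fallen genes were Rgs2 (-1.31), Rgs18 (-1.12), Rgs10 (-1.03) and Arrb2 (-0.75), the first 3 encoding proteins that shorten G protein signals and the last beta-arrestin 2, which ends receptor signalling. Arrb2 was named after its values were seen. Rgs10 measured 71.6, 89.7 and 85.6 CPM in young A, B and C and 34.0, 44.3 and 42.5 CPM in aged A, B and C (edgeR adjusted p = 0.00706), and was called without each library in turn. Rgs2 (0.0259) lost its call without young B (0.0969), young C (0.107), aged A (0.0675) or aged B (0.0591). Rgs18 (0.0328) kept it only without young A, with 0.0969 without young B, 0.0813 without young C, 0.0596 without aged A, 0.0743 without aged B and 0.101 without aged C. Arrb2 (0.0264) lost it without young B (0.0924), young C (0.101), aged B (0.0631) or aged C (0.111). Grk5, a receptor kinase, rose by 0.82 ± 0.24 (log2, SE, edgeR adjusted p = 0.0410). It was called neither with upper-quartile scaling (0.0550) nor without young B (0.116), young C (0.153), aged A (0.0724), aged B (0.0809) or aged C (0.111).

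Of 29 migration effectors, all tested, 4 rose, 2 fell and 23 were not called. Their median log2 fold change was 0.02. The risen genes were Pik3r5 (1.14), a subunit of the lipid kinase that chemokine receptors switch on, Pak2 (0.84), and the contractility kinases Rock2 (0.75) and Rock1 (0.63), the last named after its values were seen. The fallen genes were Nup85 (-1.22), whose product has been described as a partner of Ccr2, and Pak1 (-0.77). By edgeR the adjusted p was 0.0114 for Pik3r5, 0.0141 for Pak2, 0.0422 for Rock2, 0.0200 for Rock1, 0.0113 for Nup85 and 0.0185 for Pak1. Without young C none of the 6 was called, with adjusted p values of 0.0729 for Pik3r5, 0.0774 for Pak2, 0.162 for Rock2, 0.0903 for Rock1, 0.0700 for Nup85 and 0.0929 for Pak1. Without aged C all but Pik3r5 were lost (Pak2 0.0536, Rock2 0.0908, Rock1 0.0834, Nup85 0.0505, Pak1 0.0543). Without young B the calls of Rock2 (0.129), Rock1 (0.0579) and Pak1 (0.0592) were lost, and Rock2 was also lost without aged A (0.0626) or aged B (0.109), with upper-quartile scaling (0.0572) and without the filter (0.0502). Over all 6 lists, 12 of 77 tested genes rose, 6 fell and 59 were not called. Of all tested genes 9.73% rose and 7.97% fell.

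On chromosome 9 of mm10 lie 4 of the 7 genes. Ccr1 (123962124 to 123968693, minus strand) and Ccr2 (124101950 to 124113558, plus strand) are 133 kb apart in a cluster of receptor genes, Cx3cr1 ends 3892 kb before Ccr1, and Ccrl2 (111054486 to 111057520, minus strand) lies 12905 kb before it. In the window from 500 kb before Ccrl2 to 500 kb after the last gene of the cluster, 83 of 110 genes were tested. Their median log2 fold change was -0.02. Over all tested genes 9.73% rose and 7.97% fell, and of the 83 in this window 7 rose and 4 fell. Beside Ccr1 and Cx3cr1 these were Stt3b (0.98), Nktr (0.88), Ctnnb1 (0.82), Oxsr1 (0.80), Ubp1 (0.74) and Dync1li1 (0.62), which rose, and Exosc7 (-1.16), Cmc1 (-0.81) and Crtap (-0.58), which fell. Without young C none of these 9 was called, with adjusted p values of 0.0532 for Stt3b, 0.0904 for Nktr, 0.102 for Ctnnb1, 0.135 for Oxsr1, 0.104 for Ubp1, 0.132 for Dync1li1, 0.0838 for Exosc7, 0.125 for Cmc1 and 0.140 for Crtap. Without aged C Ctnnb1 (0.0684), Nktr (0.0683), Ubp1 (0.0778), Oxsr1 (0.130), Dync1li1 (0.123), Cmc1 (0.144) and Crtap (0.156) were lost. Without young B Ctnnb1 (0.0718), Ubp1 (0.0742), Oxsr1 (0.0850), Dync1li1 (0.107), Exosc7 (0.0535), Cmc1 (0.0974) and Crtap (0.0975) were lost. Oxsr1, Dync1li1, Cmc1 and Crtap each lost the call without further libraries as well, at adjusted p values from 0.0541 to 0.130, and Oxsr1 also with upper-quartile scaling (0.0622) and, like Crtap (0.0523), without the filter (0.0533). In the window around the cluster alone, which was added after the data were seen, 16 of 18 genes were tested and only Ccr1 was called. Its neighbours Ccr3 (0.99, adjusted p = 0.279) and Ccr9 (1.56, adjusted p = 0.289) had positive log2 fold changes and with all libraries were not called by edgeR. Both values depended on set A, with log2 fold changes of 0.12 without aged A and 1.83 without young A for Ccr3, and of 0.91 and 4.52 for Ccr9, which was called without young A (adjusted p = 0.0188).

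The genes most like each of the 7 were sought among 6583 others with a mean of at least 10 CPM, by the root mean square difference of centred log2 CPM over the 6 libraries. Ccr1 was nearest to Urgcp (0.09), Sh2d3c (0.13) and Dgat1 (0.15). Urgcp measured 21.0, 8.92 and 7.13 CPM in young and 37.2, 19.2 and 23.3 CPM in aged A, B and C, with set A highest in each age as for Ccr1. Ccr2 was nearest to Herc4 (0.11), Ptpro (0.13) and Rasa3 (0.14), and Ccrl2 to Samhd1 (0.15), Pglyrp1 (0.16) and Ptpro (0.16), which thus came up for both. Cx3cr1 was nearest to Dipk1a (0.36), Tipin (0.38) and Ighm (0.44), at larger distances than the other members. It also varied most between libraries, with a root mean square of 1.05 about its own mean, against 0.88 for Ccr1. The distance is not scaled to this spread. Cxcr4 was nearest to Clec4a3 (0.09), H2-T23 (0.10) and Stat2 (0.12), Cxcl16 to Acbd6 (0.07), Eif2b4 (0.07) and Cfdp1 (0.07), and Cmklr1 to Apobr (0.12), Ufl1 (0.13) and Zeb2 (0.14).

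The sort markers were high in every library. Itgam, which encodes CD11b, was below Fcgr1 in each young library and above it in each aged one. It rose by 0.99 ± 0.17 (log2, SE, edgeR adjusted p = 0.00735), and Adgre1, which encodes F4/80, fell by 0.69 on the log2 scale (edgeR adjusted p = 0.0292). The call of Adgre1 was lost without young B (0.0900), young C (0.113), aged A (0.0751) or aged C (0.109). Fcgr1, which encodes CD64 (adjusted p = 0.520), and Ptprc, which encodes CD45 (adjusted p = 0.386), were not called.

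Of 9 classical monocyte markers 4 rose, none fell and 5 were not called. Their summed CPM was 8830, 4903 and 6313 in young A, B and C and 24477, 19930 and 20644 in aged A, B and C. Thbs1 made up the largest part of this sum in every library and rose by 2.13 ± 0.41 (log2, SE, edgeR adjusted p = 0.0115), with the call lost without young C (0.0688) and a log2 fold change of 2.88 without young A. Vcan rose by 2.13 ± 0.23 (log2, SE, edgeR adjusted p = 0.00136) and was called without each library in turn. Fn1 (0.96, adjusted p = 0.00878) lost its call without young C (0.0536), and Hp (1.08, adjusted p = 0.0405) without any library but aged B, with upper-quartile scaling (0.0525) too, the left-out values running from 0.0732 without young A to 0.133 without young C. Ly6c2, a defining marker of these monocytes that is also carried by other cells, had a log2 fold change of -0.13 (edgeR adjusted p = 0.818). Of 7 non-classical monocyte markers, a class also marked by Cx3cr1, only Ace was called (2.71, edgeR adjusted p = 0.0122), at no more than 2.59 CPM in any library, and its call was lost without young C (0.0714). The summed CPM of that list was 118, 366 and 255 in young and 161, 134 and 247 in aged A, B and C, most of it from Nr4a1. Of 8 tested resident macrophage markers only Cbr2 was called, which was the most abundant in each young library and stood below Mrc1 in each aged one. It fell by 1.16 on the log2 scale (edgeR adjusted p = 0.0428) and lost the call without young B (0.122), young C (0.127), aged A (0.0821) or aged C (0.147). The list went both ways, with 3 positive and 5 negative log2 fold changes. Cd163 (1.46, edgeR adjusted p = 0.0739) and Lyve1 (1.46, edgeR adjusted p = 0.112) had the largest positive values and were highest in aged B. The summed CPM of this list was 679.9, 846 and 749.8 in young and 299, 953 and 485 in aged A, B and C. The part of these markers in the changes of Ccr1, Cx3cr1, Cxcr4 and Cxcl16 was not tested.

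Neutrophils were not gated out by a Ly6G stain. Of 14 tested neutrophil markers 4 rose, none fell and 10 were not called, and their summed CPM was 718, 1218 and 1173 in young and 1585, 927 and 1562 in aged A, B and C. The 4 were Cd177 (1.62, edgeR adjusted p = 0.0116), Cxcr2 (1.13), Lcn2 (0.99, edgeR adjusted p = 0.0418) and Retnlg (0.85, edgeR adjusted p = 0.0393). Cd177 was lost without young C (0.0549), and Lcn2 and Retnlg without any library but aged B, over ranges of 0.0790 to 0.119 and 0.0781 to 0.153. Upper-quartile scaling also ended the calls of Lcn2 (0.0541) and Retnlg (0.0539). S100a9, the most abundant of the list on average, had a log2 fold change of 0.20 (edgeR adjusted p = 0.700), and Ly6g itself one of 0.05 (edgeR adjusted p = 0.923), at 10.9 CPM or less in every library.

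Aged B differed from all other libraries in transcripts of skin cells. The summed CPM of 7 keratinocyte markers in the table was 178 in aged B and at most 2.17 in any other library. Krt14, the only one tested, was at 80.2 CPM in aged B and at most 0.865 CPM elsewhere, and was called (8.29 ± 2.09, log2 and SE, edgeR adjusted p = 0.0259), though not without young B (0.0925) or young C (0.111) or by limma-voom (0.126). Its log2 fold change was 3.25 without aged B and 4.93 by limma-voom. The fibroblast list summed to 120 CPM in aged B and to at most 41.1 CPM elsewhere, with Col3a1 the most abundant on average and none of 5 tested genes called. Without aged B the log2 fold change was 1.48 for Ccr1 (adjusted p = 0.0359), -1.59 for Cx3cr1 (0.0328), -0.65 for Cxcr4 (0.0891) and -0.78 for Cxcl16 (0.0385).

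Mast cell transcripts were present in some libraries and near 0 in others. The summed CPM of the 6 mast cell markers was 94.9, 47.1 and 25.6 in young A, B and C. Among aged libraries it was 64.2 in A, 1.02 in B and 0.741 in C. Cpa3, the most abundant on average by a narrow margin over Tpsb2 and Cma1, had 0 counts in aged B and aged C, as did Mcpt4 and Cma1. None of 5 tested genes was called, but Cpa3 was called without aged A (edgeR adjusted p = 0.00281) and by limma-voom (0.00634). The dendritic and Langerhans cell list summed to 73.9, 26.2 and 24.1 CPM in young and 102.9, 39.3 and 46.8 CPM in aged A, B and C, with Ccr7 highest in each aged library, Xcr1 in young A and Cd209a in young B and C, and none of 8 tested genes was called. Set A was highest within each age on that list, as it was for Ccr1, and the part of these cells in the level of Ccr1 was not tested. Lymphocyte markers summed to no more than 6.42 CPM in any library, with 3 of 12 tested. Of these only Cd4, the most abundant on average, was called, at 2.82 CPM or less (-1.76, edgeR adjusted p = 0.0386), and it was lost without every library other than aged B, with adjusted p values up to 0.137. Without aged B its log2 fold change was -2.39. Endothelial markers summed to 11.7, 10.6 and 10.8 CPM in young and 26.1, 29.4 and 31.2 CPM in aged A, B and C. Most of this came from Pecam1, which leukocytes also carry and which rose by 1.69 ± 0.21 (log2, SE, edgeR adjusted p = 0.00220), while Cdh5 had at most 12 expected counts in any library.

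**Figure D5:**
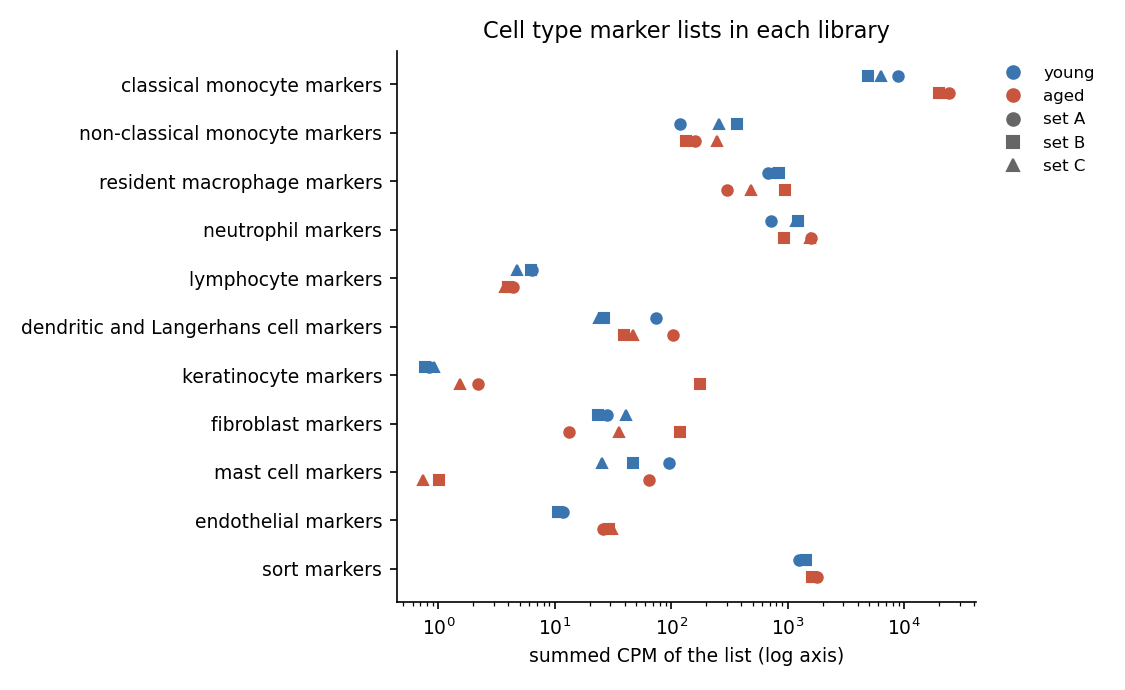
Summed CPM (log axis) of each cell type marker list in young (blue) and aged (red) libraries, with marker shape giving the set letter. Aged B stands out at 178 CPM of keratinocyte markers, and aged B and C have 1.02 and 0.741 CPM of mast cell markers, against 25.6 CPM or more in the other 4 libraries.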

How the data were processed

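RNA from sorted macrophages was amplified with the SMART-Seq v4 kit, which does not keep strand, and sequenced as paired reads. According to the submitters' processing notes and the study's methods, reads were aligned to mm10 with STAR 2.7.3a and quantified to Ensembl transcripts in Partek Flow. The matrix the authors deposited holds expected counts per gene, not normalised, of which 30.3% to 33.9% per library were not whole. They were rounded here. The deposited tables of the authors' own comparison, with fold changes and p-values, were not used.

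Genes with low counts were removed by filterByExpr (minimum count 10), leaving 11878 of 15168. Libraries were scaled by TMM and aged libraries compared with young ones in edgeR 4.0.16 (R 4.3.3) by the quasi-likelihood test with age as the only term. P-values were adjusted by the Benjamini-Hochberg method across the tested genes, and genes with an adjusted p under 0.05 were called. Standard errors were obtained from the log2 fold change and the F statistic. Log2 CPM used a prior count of 2. Lengths came from GENCODE M21. The test was also run on simulated counts, but the outcome is not reported here and lends no weight to the calls. Libraries of the same age differed by far more than sampling noise (chi-square per degree of freedom at least 32.5), so none was counted as a repeat deposit of another, which does not show that they came from separate animals.

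Alternatives were DESeq2 1.42.0, limma-voom with quality weights (limma 3.58.1), DESeq2 size factors, upper-quartile scaling, other filters and thresholds, each library left out, and a block for the set letter. Named genes were the 7 members, the tested ligands and receptors (1 gene is not reported here), up to 3 highest and 3 lowest called genes of each other pathway list, 3 most similar genes per member, called neighbours on chromosome 9, and the most abundant and called genes of each cell type list. The members and lists were chosen with earlier results of these data known.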

Additional observations from a re-analysis of the deposited data

How the results depend on the processing

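Every called gene among the 7 kept its direction in all alternatives, but the calls rested on few libraries. Over all genes 2103 were called, against 2565 with DESeq2, 3646 with limma-voom, 306 at an adjusted p under 0.01 and 1044 with more than 2-fold required. Leaving out 1 library gave 218 (without young C) to 2702 (without young A) calls, with 545 without aged C, 765 without young B and 1385 without aged A. Of the 7 genes, 0 to 4 were called without 1 library. None was called without young B, young C or aged C, although 5, 4 and 4 of them had an unadjusted edgeR p under 0.05. With all libraries 3 were called by DESeq2 and 4 by limma-voom, 0 at an adjusted p under 0.01 and 2 with more than 2-fold required. Of the other pathway genes, 18 were called, from 2 to 28 without 1 library, 2 at an adjusted p under 0.01 and 9 with more than 2-fold required. On chromosome 9, 11 genes were called in the long window and 1 in the window without Ccrl2.

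The set letter was tried as a replicate block. Deviations from the group mean correlated at 0.18 for set A, -0.02 for B and 0.11 for C, and not every library correlated best with its own letter, so the libraries were not taken as paired. With the replicate block 2114 genes, 4 of the 7 (Ccr1 at an edgeR adjusted p of 0.00894) and 22 other pathway genes were called. It ended the calls of Cxcr2 (adjusted p = 0.0596), Hp (0.0648), Lcn2 (0.0720), Retnlg (0.0556), Stat2 (0.0513) and Crtap (0.0530), while Ccl12 (0.0393), Ccr7 (0.00493), Xcr1 (0.0197), Urgcp (0.0130) and Sh2d3c (0.0172) were called with it. With the replicate block and set C left out, a combination chosen after seeing the data, 198 genes, 0 of the 7 (4 at an unadjusted edgeR p under 0.05) and 2 other pathway genes were called, against 2646 and 4 of 7 without set A and 2612 and 3 of 7 without set B, where Cxcr4 was lost (0.0803) and Ccr3 called (0.0318). The cause was not tested.

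Genes that were not called changed sign in some alternatives. The log2 fold change without 1 library ran for Ccr2 from -0.33 to 0.20, Ccrl2 from -0.39 to 0.31, Cxcl12 from -0.59 to 0.38, Cxcr3 from -1.05 to 0.16, Cxcr6 from -1.61 to 0.65, Herc4 from -0.19 to 0.29, Ptpro from -0.35 to 0.0948, Samhd1 from -0.34 to 0.24, Pglyrp1 from -0.0675 to 0.48, S100a9 from -0.0836 to 0.52 and Col3a1 from -1.24 to 1.28. With limma-voom it was -0.24 for Cxcl12, 0.0738 for Herc4 and -0.37 for Col3a1, and with upper-quartile scaling -0.0585 for Cxcl12. DESeq2 gave 0.0058 for Herc4 and 0.0035 for Samhd1, and its size factors in edgeR 0.0026 and 0.00037. With the replicate block it was -0.12 for Cxcl12, 0.0151 for Herc4 and -0.20 for Col3a1. With the replicate block and set B left out it was 0.40 for Ccr2, 0.58 for Ccrl2, -0.96 for Cxcl12 (adjusted p = 0.0203), -0.29 for Rarres2, 0.50 for Herc4, 0.34 for Ptpro, 0.16 for Rasa3, 0.38 for Samhd1, 0.15 for Nr4a1 and -1.50 for Col3a1 (adjusted p = 1.35e-05). Without set A it was -0.23 for Pglyrp1 and -0.25 for S100a9, and without set C -0.0697 for S100a9. The causes were not tested. Among the 7 genes Cx3cr1 and Cmklr1 rested on the fewest counts, at most 204 expected counts a library.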
